A study of Jatropha curcas with 10 samples.

Results

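The step from 6 h to 12 h after gibberellin treatment was followed in inflorescence meristems of the oilseed shrub Jatropha curcas. Inflorescence meristems are the growing tips that form the flower clusters. The comparison rests on 4 of the 10 libraries of the series, which are libraries 1 and 2 of 6 h and libraries 1 and 2 of 12 h. It was made within library number, so that library 1 of 12 h was set against library 1 of 6 h, and likewise for number 2. The other libraries, 2 each at 0, 24 and 48 h, served to place the 6 h and 12 h levels on the time course, and those of 24 and 48 h also entered the estimate of the spread. All plants were 3 years old and, per the labels, all groups were treated with GA3 (gibberellic acid), including the group collected at 0 h. Neither the dose nor the mode of treatment is given, and no untreated plants are labelled at 6 h or 12 h. Time since treatment and time of day therefore change together and cannot be told apart here. The labels do not say whether libraries 1 and 2 of a time are from separate plants. P-values therefore measure the spread between these libraries alone, and that spread may be technical.

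Gibberellins are plant hormones that promote stem elongation and growth and take part in the change to flowering and in flower development. Inside the cell the hormone binds the receptor GID1, and the bound receptor leads to the breakdown of DELLA proteins, which otherwise restrain growth and alter the activity of transcription factors. Genes downstream can respond in successive waves: some transcripts rise quickly and are lost again as their synthesis stops and the RNA is degraded, and others change only later. Many plant transcripts also follow the hour of the day.

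The deposited values were read as RPKM, a measure in which the reads of a gene are divided by its length and by the depth of the library. Of the 28447 genes in the tables, 17403 averaged 1 RPKM or more over the 4 libraries of 6 h and 12 h and were tested. Of the 11044 left out, 7015 were at 0 in all 4 libraries and 4029 had some reads. The lowest mean among the tested genes was 1.0004 RPKM and the highest mean among those left out was 0.99977 RPKM. The tables give locus tags and do not pair them with gene names or products. None of the tags matched the RefSeq gene table, so genes are given by tag, their functions are unknown here, and the labelled tissue could not be checked against marker genes.

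The 4 libraries held between 15932010 and 20631300 reads recovered from the values. The libraries of number 1 and number 2 differed in ways that the time labels do not explain. A set of 52 genes was picked, after the values had been seen, for a rise of at least 8-fold in number 2. These genes took 2.19% of the reads in library 1 of 6 h and 0.0280% in library 2 of 6 h, but 1.55% and 0.844% in libraries 1 and 2 of 12 h. The pick itself set library 2 low at 6 h and high at 12 h, but did not use the values of number 1. The set is described with the agreement between the numbers. The change from 6 h to 12 h also followed gene length in opposite directions in the 2 numbers, with Spearman correlations over genes of -0.124 in number 1 and 0.355 in number 2.

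With all treated libraries (those of 6 to 48 h) in the fit, more genes fell than rose between 6 h and 12 h, and the falls had the larger median. Of the 17403 genes tested, 101 fell (0.58%) and 53 rose (0.305%) at a Benjamini-Hochberg adjusted p under 0.05 (limma, with library number as a replicate block). The fallen genes changed by a median of -1.86 on the log2(RPKM + 1) scale, with a range from -5.60 to -1.02. The risen genes changed by a median of 1.48, with a range from 0.998 to 3.10. The median change of all tested genes was 0.02. Falls of at least 4-fold were seen in 43 of the 101 genes and falls of at least 8-fold in 23. Rises of at least 4-fold were seen in 7 of the 53 genes, and a rise of at least 8-fold in 1. Standard errors ranged from 0.161 to 0.561 among the fallen genes and from 0.163 to 0.335 among the risen genes.

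The fallen genes included abundant transcripts. Their median level was 49.8 RPKM at 6 h and 10.9 RPKM at 12 h, and 33 of them (32.7%) had a mean of at least 100 RPKM at 6 h, against 12.9% of all tested genes. The call favours genes that are high at 6 h, so part of that share was set by it. At 12 h, 8 of the 101 were at 100 RPKM or more, against 2201 of the 17403 tested. At 0 h, which the call did not use, their median was 33.4 RPKM, against 18.9 for all tested genes. Together they took 1.89% and 1.86% of the reads in libraries 1 and 2 of 6 h, and 0.336% and 0.232% of those of 12 h. The 53 risen genes took 0.182% and 0.139% of the reads at 6 h and 0.538% and 0.419% at 12 h. In these bulk samples, fewer cells that express a gene and less of its RNA per cell cannot be told apart.

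The counts depended on the block and on the libraries in the fit. Without the replicate block, limma on the 8 treated libraries called 5 falls and 0 rises, and 758 genes had an unadjusted p under 0.05, against 1998 with the block. With all 10 libraries and no block it called 21 falls and 1 rise. Without library 1 or 2 of 12 h, 32 and 19 genes fell and 5 and 4 rose. Fewer genes were also called without library 2 of 6 h or without either library of 48 h. Leaving out 1 library lets the fit match its partner exactly, so that time no longer adds to the estimate of the spread. Leaving out either library of 24 or 48 h thus in effect leaves out that whole time. Without library 1 of 6 h, 82 genes fell and 86 rose, so the data do not fix which direction held more genes.

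The level at 0 h divided the called genes into 6 time patterns, with 2-fold as the limit. Of the 101 fallen genes, 45 had been at least 2-fold above 0 h at 6 h and so decayed from a 6 h peak. A further 23 had been at least 2-fold below 0 h at 6 h and fell further, and 33 had been within 2-fold of 0 h at 6 h and fell after it. Of the 53 risen genes, 36 had been within 2-fold of 0 h at 6 h and rose after it, 4 had been at least 2-fold above 0 h and rose further, and 13 had been at least 2-fold below 0 h and returned from that low. Among all 17403 tested genes, 3.21% were at least 2-fold above 0 h at 6 h, 92.2% within 2-fold and 4.55% at least 2-fold below. The 6 h libraries enter both the call and the pattern, which by itself favours falls from high and rises from low 6 h levels, so these shares are a description. In the rest of the text, levels against 0 h are differences of means on the log2(RPKM + 1) scale and carry no test.

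**Figure D1:**
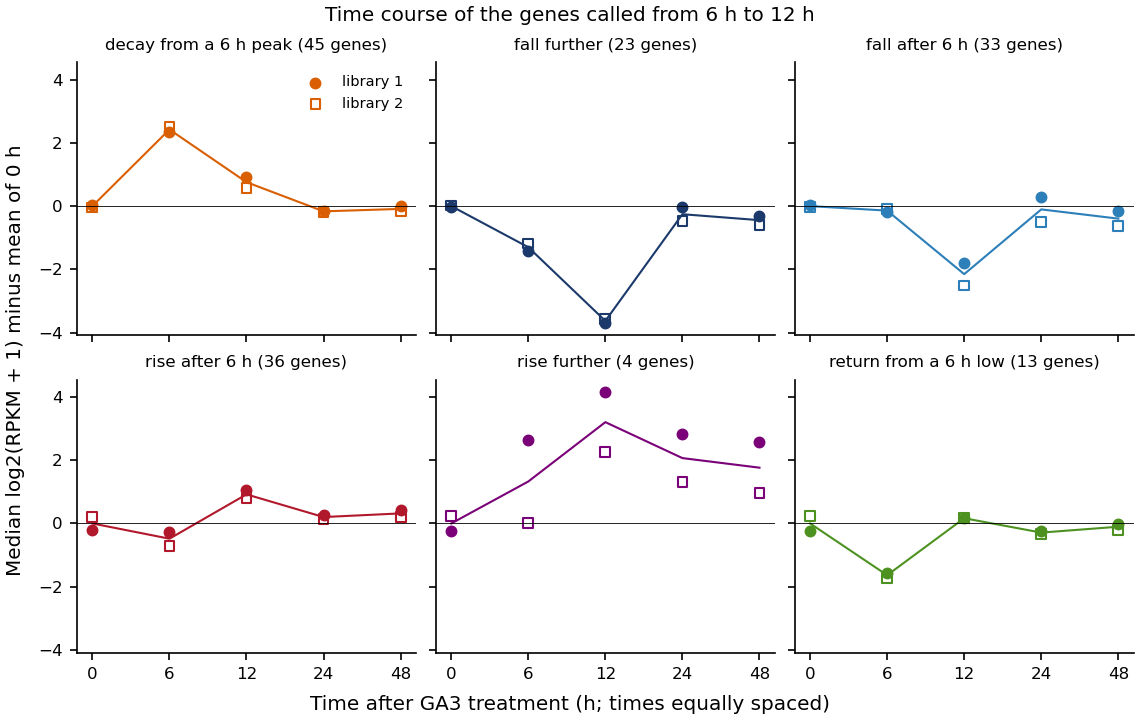
Median over the genes of each pattern of log2(RPKM + 1) minus the mean of the 0 h libraries, in each of the 10 libraries (filled circles, number 1; open squares, number 2; the line joins the mean of both). The genes that decayed from a 6 h peak were at medians of 2.35 and 2.49 in the 6 h libraries and 0.93 and 0.58 in those of 12 h, whereas the 4 genes that rose further were at 2.63 in library 1 of 6 h and 0.03 in library 2.

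Decay from a 6 h peak was seen in 45 genes, the most of the 6 patterns in this fit with the 2-fold limit. The order of the patterns is not fixed: with the 6 h and 12 h libraries alone, 53 genes decayed and 68 fell after 6 h, and with a 3-fold limit these were 36 and 59. The order also differed when the call was made without library 1 of 6 h, although the patterns there still used both 6 h libraries. The median level of the 45 genes went from 4.89 RPKM at 0 h to 45.1 at 6 h and back to 10.5 at 12 h. It was 4.87 RPKM at 24 h and 5.41 at 48 h. Against 0 h they were at a median of 2.48 (log2) at 6 h and 0.65 at 12 h. At 12 h, 29 of the 45 were within 2-fold of 0 h, 15 were still at least 2-fold above it and 1 was at least 2-fold below it. On the linear scale, a median of 11.7% of the excess over 0 h was left at 12 h, with quartiles of -3.3% and 20.4%. For 38 of the 45 genes less than 25% was left, and in 13 the 12 h mean was below that of 0 h. With the 6 h and 12 h values of each number set against the mean of both 0 h libraries, the median remainder was 9.51% in number 1 and 7.04% in number 2. In 41 of the 45 genes both 6 h libraries lay above the other 8 libraries, an order found in 5.56% of all tested genes. The call and the pattern already placed 6 h above 12 h and 0 h, so nothing is read from that count. Together the 45 genes took 0.352% and 0.311% of the reads in the 6 h libraries and 0.0946% and 0.0766% in those of 12 h, against 0.0590% and 0.0454% in those of 0 h.

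JCGZ_04688 (coding length 549 bases) showed the largest decay on the log2(RPKM + 1) scale. It was at 0.610 and 0.570 RPKM in the 0 h libraries, 88.2 and 13.1 in those of 6 h, 1.15 and 0.0954 in those of 12 h, 2.82 and 0.596 in those of 24 h, and 2.38 and 0.405 in those of 48 h. The reads behind the values of the step were 772 and 129 at 6 h and 13 and 1 at 12 h. Both 6 h libraries lay above all others, library 1 well above library 2. From 6 h to 12 h it changed by -4.53 ± 0.40 (log2, SE; limma adjusted p = 0.00594), by -5.38 in number 1 and -3.69 in number 2. In RPKM the order was the reverse, with falls of 76.9-fold in number 1 and 137.4-fold in number 2, where 12 h rested on 1 read. The call was lost without library 1 of 12 h (limma adjusted p = 0.0538) and without the block (0.348 and 0.165 with 8 and 10 libraries), over a range of 0.000705 to 0.348 in 19 alternatives.

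JCGZ_01274 (387 bases) decayed in both numbers. It was at 1.58 and 1.35 RPKM in the 0 h libraries, 284.2 and 153.7 in those of 6 h, 11.02 and 10.01 in those of 12 h, 0.856 and 0.317 in those of 24 h, and 0.422 and 1.01 in those of 48 h. Its groups of 6 h and 12 h did not overlap with each other or with any other time, so at 12 h it was still above both 0 h libraries. The fall was 25.8-fold in number 1 and 15.3-fold in number 2, and the change over both was -4.19 ± 0.32 (SE, log2; limma adjusted p = 0.00275). It was called in all 19 alternatives (limma adjusted p of 0.000344 to 0.0494).

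The 23 genes that fell further went down in successive steps. Their median level was 93.5 RPKM at 0 h, 30.3 at 6 h and 3.88 at 12 h. By 24 h it was back at 72.7 RPKM, and it was 75.2 at 48 h. At 6 h they stood at a median of 36.6% of their 0 h level, and at 12 h at 4.89%, with 17 of the 23 under 10%. Against 0 h this was a median of -1.32 (log2) at 6 h and -3.84 at 12 h. In all 23, both 12 h libraries lay below the other 8 libraries, an order found in 2.74% of all tested genes. The call itself required 12 h to lie below 6 h, and the pattern required 6 h to lie below 0 h. Neither fixed the order against 24 and 48 h, but 95.6% and 95.3% of all tested genes were then within 2-fold of 0 h. Nothing is therefore read from that count. The 23 genes took 0.442% and 0.511% of the reads in the 0 h libraries, 0.188% and 0.205% in those of 6 h and 0.0244% and 0.0135% in those of 12 h. At 24 h they took 0.614% and 0.324%.

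JCGZ_11643 (coding length 750 bases) had the largest fall of all called genes on the log2(RPKM + 1) scale. It was at 1056.7 and 1211.6 RPKM in the 0 h libraries, 536.8 and 585.3 in those of 6 h, 13.2 and 8.38 in those of 12 h, 1832.1 and 646.6 in those of 24 h, and 1021.7 and 735.6 in those of 48 h. The fall from 6 h to 12 h was 40.5-fold in number 1 and 69.9-fold in number 2, whereas the 0 h level had been about double that of 6 h. The change was -5.60 ± 0.35 (log2, SE; limma adjusted p = 0.00142), and it was called in all 19 alternatives (0.000163 to 0.0488).

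JCGZ_23011 (1104 bases) went almost to the limit of detection. It was at 153.9 and 162.2 RPKM in the 0 h libraries, 48.6 and 80.7 in those of 6 h, 0.527 and 0.617 in those of 12 h, 113.3 and 99.8 in those of 24 h, and 125.8 and 143.7 in those of 48 h. The 12 h values rested on 12 and 13 reads, against 855 and 1598 at 6 h. In RPKM the fall was 92.3-fold in number 1 and 130.9-fold in number 2, more than that of JCGZ_11643, and it was also the larger with a pseudocount of 0.1 (-6.55 against -5.72, log2) and with voom (-6.72 against -5.74). The change was -5.34 ± 0.23 (log2, SE; limma adjusted p = 0.000319), and the gene was called in all 19 alternatives (0.000128 to 0.0122).

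The 33 genes that fell after 6 h included abundant transcripts. Their median level was 151.3 RPKM at 0 h and 146.4 at 6 h, dropped to 23.6 at 12 h, and stood at 100.1 and 65.8 at 24 and 48 h. Against 0 h they were at a median of -0.08 (log2) at 6 h and -2.30 at 12 h. At 12 h, 28 of the 33 were at least 2-fold below 0 h, and 8 were under 10% of it. At 6 h, 19 of them were at 100 RPKM or more and 4 at 1000 RPKM or more. In 26 of the 33, both 12 h libraries lay below the other 8, an order partly set by the choice of the genes. The group took 1.73% and 2.12% of the reads at 0 h, 1.35% in each library of 6 h, 0.217% and 0.142% in those of 12 h, and 2.75% and 1.57% in those of 24 h. These 33 genes therefore held most of the reads lost by the 101 fallen genes.

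JCGZ_04588 (coding length 798 bases) was the most abundant of the genes named here. It was at 6898.6 and 9783.4 RPKM in the 0 h libraries, 4339.8 and 4080.6 in those of 6 h, 128.8 and 136.2 in those of 12 h, 10812.2 and 7338.7 in those of 24 h, and 7762.9 and 7322.9 in those of 48 h. Its mean had already gone from 8341.0 RPKM at 0 h to 4210.2 at 6 h, just inside the 2-fold limit of the pattern. The 2 libraries of 12 h were close to each other and far below every other library. The gene took 0.346% and 0.326% of the reads at 6 h and 0.0103% and 0.0109% at 12 h, a fall of 33.7-fold in number 1 and 30.0-fold in number 2. The change was -4.98 ± 0.26 (log2, SE; limma adjusted p = 0.000596), called in all 19 alternatives (0.000149 to 0.0228).

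JCGZ_00703 (804 bases) had the largest change of this pattern on the log2(RPKM + 1) scale. It was at 1454.2 and 1769.7 RPKM in the 0 h libraries, 942.3 and 717.6 in those of 6 h, 36.6 and 14.6 in those of 12 h, 3068.7 and 1117.5 in those of 24 h, and 1958.6 and 1117.7 in those of 48 h. Its mean also lay just inside the 2-fold limit at 6 h (1612.0 RPKM at 0 h, 829.9 at 6 h). JCGZ_11643, placed with the genes that fell further, lay just outside that limit (1134.2 and 561.0 RPKM). In JCGZ_00703, both 12 h libraries lay below every other library. The change was -5.09 ± 0.28 (log2, SE; limma adjusted p = 0.000805). Its call was lost in 1 of 19 alternatives, the 8 treated libraries without the block (limma adjusted p = 0.0994; range 0.000275 to 0.0994).

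Rises had smaller changes than falls at the median. The 36 genes that rose after 6 h had a median level of 35.9 RPKM at 0 h and 25.4 at 6 h, went up to 67.7 at 12 h, and stood at 41.9 and 43.6 at 24 and 48 h. Their 6 h level lay below that of 0 h at the median (-0.48, log2), and at 12 h they were at a median of 0.90 above 0 h. At 12 h, 13 of the 36 were at least 2-fold above 0 h, and 23 were within 2-fold of it. In 23 of the 36, both 12 h libraries lay above the other 8, an order found in 3.65% of all tested genes. The call placed 12 h above 6 h and the pattern kept 6 h near 0 h, so part of that order was set by how the genes were chosen. The group took 0.133% and 0.0955% of the reads at 6 h and 0.339% and 0.279% at 12 h. Library 1 was higher than library 2 in 32 of the 36 genes at 6 h and in 26 at 12 h.

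JCGZ_09299 (coding length 1215 bases) peaked at 12 h in both numbers. Its mean of 6.98 RPKM at 6 h, against 3.06 at 0 h, was within 2-fold only on the log2(RPKM + 1) scale. It was at 2.94 and 3.18 RPKM in the 0 h libraries, 9.92 and 4.04 in those of 6 h, 41.7 and 25.1 in those of 12 h, 5.63 and 2.63 in those of 24 h, and 6.14 and 5.13 in those of 48 h. Both 12 h values lay above all others, and the rise from 6 h was 4.21-fold in number 1 and 6.22-fold in number 2. The change was 2.17 ± 0.25 (log2, SE; limma adjusted p = 0.0164). JCGZ_13305 (585 bases) changed by 2.14 ± 0.22 (limma adjusted p = 0.0119), but its 12 h values overlapped with those of 0 h. It was at 6.01 and 13.1 RPKM in the 0 h libraries, 7.08 and 2.38 in those of 6 h, 36.8 and 13.0 in those of 12 h, 22.8 and 12.7 in those of 24 h, and 27.5 and 8.94 in those of 48 h. Its mean of 4.73 RPKM at 6 h, against 9.56 at 0 h, was also within 2-fold only on the log2(RPKM + 1) scale, on the low side. Each of these genes lost its call in 5 of 19 alternatives. These were the fits without either 12 h library, without library 2 of 6 h, and without the block. The limma adjusted p ranged from 0.00572 to 0.431 for JCGZ_09299 and from 0.00727 to 0.867 for JCGZ_13305.

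The 4 genes that rose further rested on library 1 for their place above 0 h at 6 h. The median of these genes against 0 h was 2.63 (log2) in library 1 of 6 h and 0.03 in library 2. Library 1 was higher than library 2 in all 4 genes at both times. JCGZ_09023 (coding length 510 bases) was at 2.41 and 6.65 RPKM in the 0 h libraries, 38.5 and 4.16 in those of 6 h, 230.9 and 63.9 in those of 12 h, 107.1 and 35.0 in those of 24 h, and 57.2 and 18.9 in those of 48 h. In number 2 its 6 h value thus lay between those of 0 h, and the rise came after 6 h. Its change was 3.10 ± 0.34 (log2, SE; limma adjusted p = 0.0164), lost without either 12 h library or without the block (0.00353 to 0.957 over 19 alternatives). JCGZ_07517 (393 bases) was at 20.3 and 19.0 RPKM in the 0 h libraries, 135.9 and 20.2 in those of 6 h, 344.5 and 108.1 in those of 12 h, 146.8 and 46.9 in those of 24 h, and 109.0 and 34.2 in those of 48 h. Its change of 1.85 ± 0.28 (limma adjusted p = 0.0385) was lost in 10 of 19 alternatives (0.0121 to 1).

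The 13 genes that returned from a 6 h low were at a median of 22.8 RPKM at 0 h, 6.36 at 6 h and 28.9 at 12 h. At 12 h, 11 of the 13 were within 2-fold of 0 h. Together they took 0.231% and 0.244% of the reads in the 0 h libraries, 0.0394% and 0.0414% in those of 6 h, and 0.169% and 0.129% in those of 12 h. JCGZ_03325 (coding length 759 bases) was at 96.4 and 99.0 RPKM in the 0 h libraries, 12.9 and 16.9 in those of 6 h, 99.5 and 83.5 in those of 12 h, 81.8 and 56.1 in those of 24 h, and 46.5 and 81.8 in those of 48 h. Its 6 h values lay below all others, and its 12 h values were on both sides of those of 0 h. The change was 2.55 ± 0.31 (log2, SE; limma adjusted p = 0.024), lost in 6 of 19 alternatives (0.00251 to 0.155). These included the fits without any single library of 6 h or 12 h. JCGZ_07524 (378 bases) was at 4.43 and 16.0 RPKM in the 0 h libraries, 2.82 and 1.77 in those of 6 h, 26.9 and 9.97 in those of 12 h, 13.4 in each library of 24 h, and 13.3 and 6.77 in those of 48 h. The place of JCGZ_07524 in this pattern rested on library 2 of 0 h, and its 6 h values on 17 and 12 reads. Its change of 2.43 ± 0.32 (limma adjusted p = 0.0259) was lost in 10 of 19 alternatives (0.0103 to 0.393), among them voom on the recovered reads (0.0535).

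**Figure D2:**
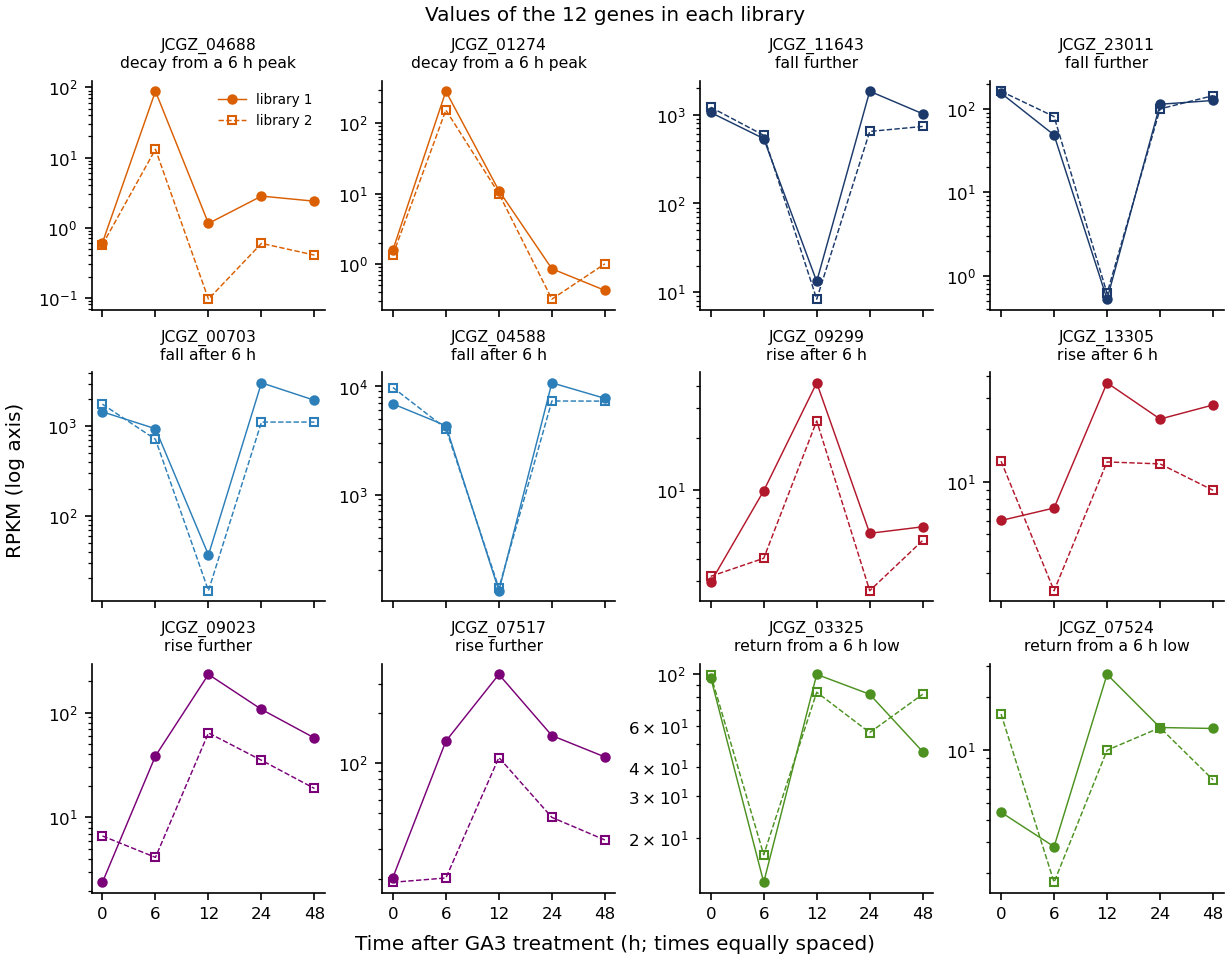
RPKM (log axis, own scale in each panel) of the 12 named genes in each library against time after GA3 (solid line and circles, number 1; dashed line and squares, number 2). JCGZ_04588 fell to 128.8 and 136.2 RPKM at 12 h in the 2 libraries, and JCGZ_09023 was at 38.5 RPKM in library 1 of 6 h but at 4.16 in library 2.

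**Figure D3:**
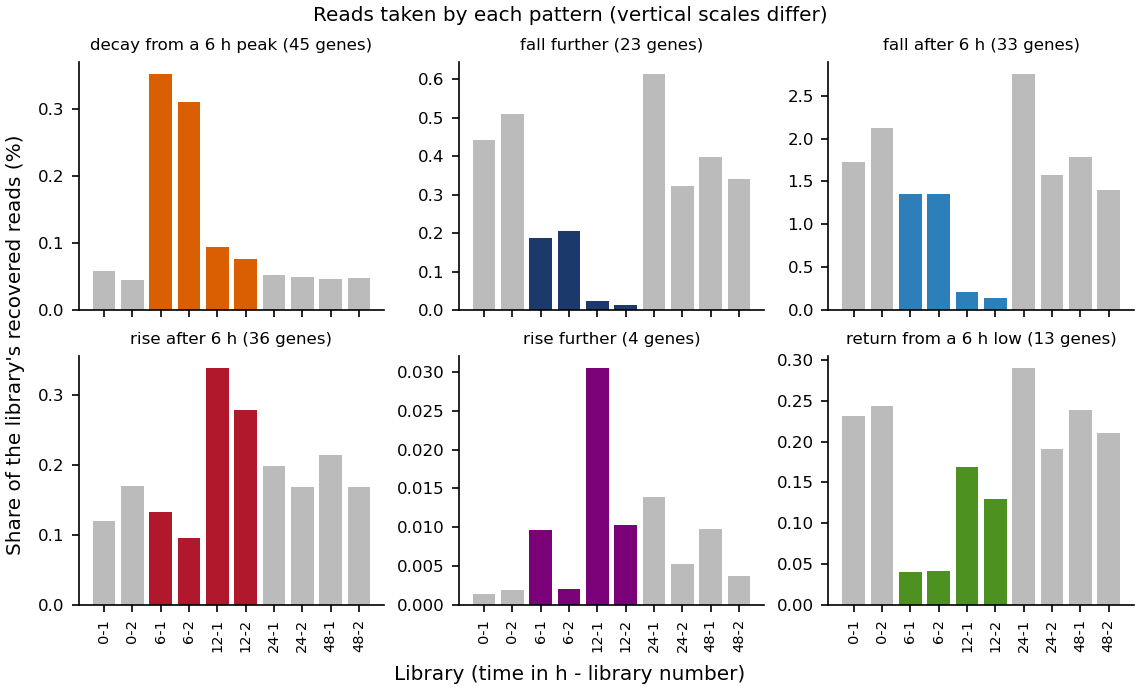
Share of each library's recovered reads (%) taken by the genes of each pattern, with the 6 h and 12 h libraries in colour and the others in grey; vertical scales differ between panels and start at 0. The genes that fell after 6 h took 1.35% of the reads in each 6 h library and 0.217% and 0.142% in those of 12 h.

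At 24 h the fallen genes were near their 0 h level about as often as all tested genes, and the risen genes less often. The libraries of 0, 24 and 48 h do not enter the difference between 12 h and 6 h, so the direction of the call did not fix these levels, although those of 24 and 48 h entered the estimate of the spread. Of the 101 fallen genes, 96.0% were within 2-fold of 0 h at 24 h and 91.1% at 48 h, against 95.6% and 95.3% of all tested genes. Their median against 0 h was -0.15 (log2) at 24 h, where that of all tested genes was also -0.15. At 48 h it was -0.29, against -0.02 for all tested genes, and 9 of the 101 (8.91%) were at least 2-fold below 0 h, against 2.57% of all tested genes. Of the 53 risen genes, 86.8% were within 2-fold of 0 h at 24 h and 86.8% at 48 h, below the shares of all tested genes. They stayed higher: their median was 0.18 at 24 h and 0.35 at 48 h. At each time, 7 of the 53 (13.2%) were at least 2-fold above 0 h, against 1.95% and 2.09% of all tested genes. Those 7 were at each time the 4 genes that rose further and 3 of those that rose after 6 h.

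Genes that fell in one library number also fell in the other more often than was the case for genes that rose, a difference given without a test. The within-number changes share no library, so each can be read without having been chosen by the other. Over the 17403 genes they correlated with a Pearson r of 0.322 and a Spearman rho of 0.19, given without a p because genes are not independent replicates. At least 2-fold falls in both numbers were found in 222 genes and at least 2-fold rises in both in 119, and 32 genes went at least 2-fold in opposite directions. Of the 437 genes that were at least 2-fold lower in number 1, 84.0% were lower in number 2, with a median change there of -1.01 (log2). Of the 466 that were at least 2-fold higher in number 1, 72.1% were higher in number 2, with a median change of 0.40. Picked in number 2, 79.2% of 639 lower genes and 65.4% of 725 higher genes had the same direction in number 1. Of all genes, 51.4% were higher at 12 h in number 2 and 50.9% in number 1.

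**Figure D4:**
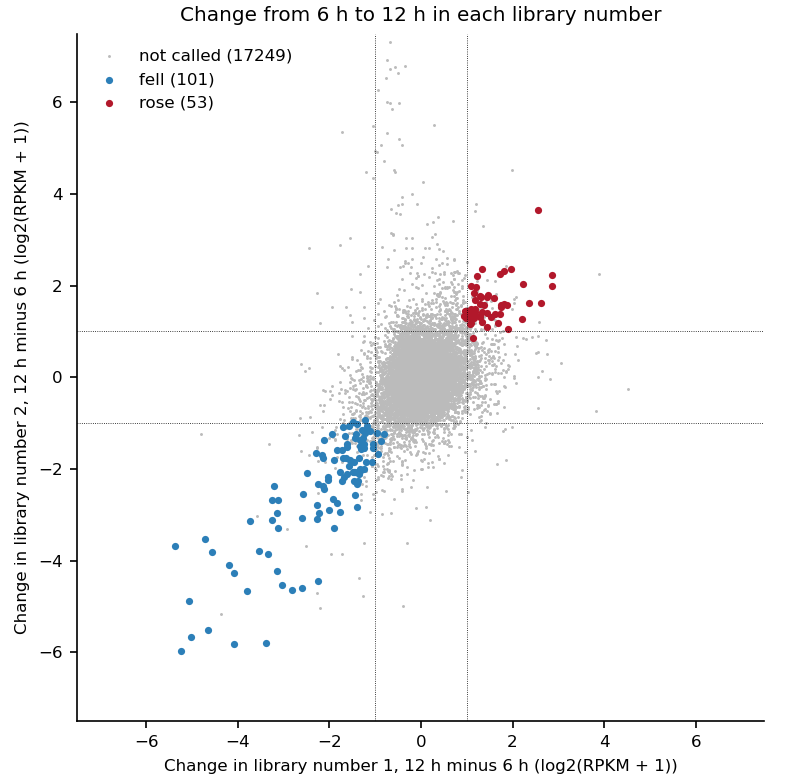
Change from 6 h to 12 h of each of the 17403 tested genes in library number 1 (horizontal axis) and number 2 (vertical axis), both as differences of log2(RPKM + 1), with called genes in colour and dotted lines at 2-fold. The 101 fallen genes lie at the lower left, and an upright column of genes rose in number 2 while changing little or falling in number 1.

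The patterns were also counted without the limma test. Among the 341 genes that moved at least 2-fold the same way in both numbers, 66 decayed from a 6 h peak, 56 fell further and 100 fell after 6 h. A further 80 rose after 6 h, 8 rose further and 31 returned from a 6 h low. Of these 341, 144 were also called, 95 as falls and 49 as rises. The 56 genes that fell further on this count were at a median of -3.79 (log2) against 0 h at 12 h, and the 66 decaying genes were at 0.61.

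Changes of at least 8-fold were mostly shared between the numbers when they were falls and mostly not when they were rises. In number 1, 27 genes fell at least 8-fold, all 27 were at least 2-fold lower in number 2 as well, and 23 were called. In number 2, 39 genes fell at least 8-fold, of which 36 were at least 2-fold lower in number 1 and 25 were called. By contrast, 52 genes rose at least 8-fold in number 2, but only 5 of them were at least 2-fold higher in number 1, 39 were lower there, and 1 was called. In number 1, 4 genes rose at least 8-fold, and 1 of them was at least 2-fold higher in number 2. These lists were made after the values had been seen.

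At the median, the 52 genes were high in number 1 at every treated time and high in number 2 at 12 h. Their median level was 15.2 and 10.5 RPKM in the 0 h libraries, 306.0 and 4.07 in those of 6 h, 272.8 and 138.1 in those of 12 h, 123.6 and 12.0 in those of 24 h, and 233.0 and 19.6 in those of 48 h. Library 1 of 6 h was at least 4-fold higher than library 2 in 50 of the 52. In 42 of them all 4 treated libraries of number 1 lay above both 0 h libraries, and in 43 library 2 of 12 h lay above the other 4 libraries of number 2. The pick favoured a low library 2 of 6 h and a high library 2 of 12 h, so the counts of 50 and 43 were partly set by it. No share over all tested genes stands beside these counts, or beside the counts of lengths and tags below. The highest of them, JCGZ_02890 (coding length 474 bases), was chosen after its values were seen. It was at 2.00 and 5.73 RPKM in the 0 h libraries, 4149.1 and 13.1 in those of 6 h, 2799.2 and 1540.4 in those of 12 h, 1725.1 and 35.5 in those of 24 h, and 2506.8 and 21.5 in those of 48 h. Its change from 6 h to 12 h was 3.10 ± 1.89 (log2, SE; limma adjusted p = 0.654), made of -0.57 in number 1 and 6.78 in number 2. Of the 52 genes, 8 had a coding length of exactly 474 bases and 7 had a tag number next to that of another gene of the set. If near-identical copies share reads, the values of single genes of this set are uncertain, which could not be checked.

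Gene length moved with the change in opposite ways in the 2 numbers. With genes split into 10 classes by length, the shortest class had a median length of 333 bases. Its median change was 0.11 (log2) in number 1 and -0.23 in number 2. In the longest class (median 2997 bases) it was -0.11 in number 1 and 0.43 in number 2. Called genes were shorter than average, with median lengths of 843 bases for the fallen and 930 for the risen genes, against 1107 for all tested genes. Calls of falls made up 1.03% of the shortest class and 0.287% of the longest. With each library corrected for its length trend and with the block, 94 genes fell and 38 rose, of which 88 and 38 were among the 101 and 53.

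**Figure D5:**
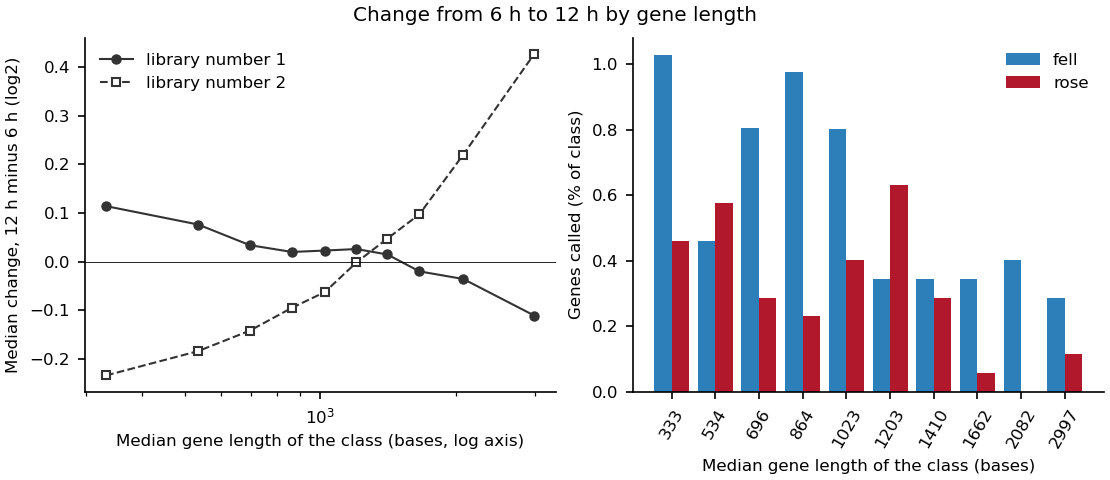
Left, median change from 6 h to 12 h (log2) in each of 10 classes of gene length (log axis), by library number. Right, share of each class called as fallen or risen (%). The trend ran from 0.11 to -0.11 in number 1 and from -0.23 to 0.43 in number 2.

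Calls were more frequent among abundant genes. Falls were called for 0.259% of the 5415 genes with a mean of 1 to 10 RPKM over the 4 libraries, 0.604% of the 9776 with 10 to 100 RPKM, and 1.27% of the 2212 with 100 RPKM or more. For rises these shares were 0.166%, 0.348% and 0.452%. Of the 930 tested genes whose IDs do not begin with JCGZ, 3 were called (0.323%), against 154 of all tested genes (0.885%).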

How the data were processed

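Total RNA was sequenced in 10 libraries, 2 at each of 5 times. The authors deposited a table of RPKM for each library. That unit is not written in the tables and was inferred here, since scaling by one length per gene and one depth per library turned the values into whole reads. The submitters' processing notes name Bowtie 0.12.2 as a tool and mm8, a mouse build, as a genome build, with no role for either. No source used here names the genome aligned to, the counting tool or a filter.

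Reads and lengths were recovered from ratios of values between libraries. All 203696 nonzero values were whole reads to within 0.01 of a read (3e-08 in relative terms for the highest), and 99.94% of 20320 lengths of genes with at least 10 reads were whole within 0.02 bases. The whole reads were searched for and the lengths taken from them. The first of these shares is therefore partly built in, most of all for genes with reads in few libraries. Lengths of JCGZ genes are called coding lengths because 99.99% could be divided by 3. Depth was 15932010 to 24444339 reads per library, and 3 reads at 1 kb correspond to 0.123 to 0.188 RPKM. These limits cover counting error only.

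The 8 libraries of 6 to 48 h, called treated here, were fitted with limma 3.58.1 in R 4.3.3 on log2(RPKM + 1), with time and library number as terms, a mean-variance trend and robust moderation. Benjamini-Hochberg adjustment ran over all 17403 genes. The test was checked on simulated data. Fold changes on this scale understate the change of low genes. Library numbers were taken to pair the treated libraries by the rule set for this comparison, and the labels do not say what the number stands for. Deviations from the time means also correlated between every pair of times (r over genes of 0.54 to 0.702). The source of that correlation was not tested. The 6 time patterns used differences of means against 0 h. Up to 2 genes per pattern are named, those with the largest change among called genes of at least 10 RPKM at the higher time that moved the same way in both numbers. Gene lists by product could not be run because 0 of the 28447 IDs matched the RefSeq table of 28617 genes. The members and lists were chosen with earlier results of these data known. Alternatives were a fit without the block, other sets of libraries, pseudocount, filters, moderation, scalings, a length correction, voom on recovered reads and leaving out each treated library.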

Additional observations from a re-analysis of the deposited data

How the results depend on the processing

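The comparison called 101 falls and 53 rises. With the replicate block kept, the counts stayed within 1.5 times of these under a pseudocount of 0.1, a minimum mean of 5 RPKM, non-robust moderation, quantile normalization, median-ratio scaling, the coding length correction and voom on the recovered reads (88 to 101 falls and 38 to 53 rises). They were 157 and 81 with the 4 libraries of 6 h and 12 h alone, and 46 and 7 with no filter on low values. Without the replicate block they were 5 and 0 with the 8 treated libraries (758 genes with an unadjusted p under 0.05) and 21 and 1 with all 10 libraries, and the cause was not tested. Leaving out single libraries gave 19 to 116 falls and 4 to 86 rises. In those 8 fits the decaying genes numbered 7 to 37 and those that fell further 5 to 28. The genes that fell after 6 h numbered 7 to 51 and those that rose after it 2 to 74, and 0 to 5 rose further and 0 to 11 returned. The 19 alternatives gave 228 values for the 12 named genes, and the call was kept in 184 of them. The direction was kept in all, but the genes were chosen for moving the same way in both numbers. Several of the fits also left the estimated change as it was, so nothing is read from the kept direction. With limits of 1.5-fold and 3-fold against 0 h in place of 2-fold, 51 and 36 genes decayed from a 6 h peak, 29 and 6 fell further, 21 and 59 fell after 6 h, 20 and 47 rose after it, 7 and 0 rose further, and 26 and 6 returned from a 6 h low. The Pearson r between the numbers was 0.342 with a minimum mean of 5 RPKM and 0.304 with a pseudocount of 0.1. With 2 libraries per time and a residual spread borrowed from the other treated times, small changes were not detectable, in low genes or in abundant ones. The smallest changes called at any level were -1.02 for falls and 0.998 for rises (log2). Genes that were not called are therefore not shown to be unchanged.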

Other observations

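The 32 genes that moved at least 2-fold in opposite directions in the 2 numbers were short and low. Their median length was 538 bases, against 1107 for all tested genes, and 18 of the 32 (56.2%) had a mean under 10 RPKM over the 4 libraries, against 31.1% of all tested genes. Of these genes, 11 were higher at 12 h in number 1 and lower in number 2, and 21 the reverse.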
